A study of Mus musculus with 12 samples.

Results

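The comparison described here followed Ino80 knockout (KO) hearts over 1 day of development: 3 KO hearts of embryonic day E14.5 (replicates 2, 4 and 1) were set against 3 KO hearts of E13.5 (replicates 3, 5 and 7), across all genes. These are 6 of the 12 libraries of the study, and the labels' genotype and time point chose them. Each library held RNA of the whole heart of 1 mouse embryo, in which Ino80 had been disrupted in endothelium with Tie2. The other 6 libraries came from wild-type (WT) hearts, 3 per stage, and appear below only beside the KO values. Every E13.5 embryo came from litter 1, whereas KO replicates 2 and 4 of E14.5 came from litter 2 and replicate 1 from litter 3. Stage and litter therefore cannot be told apart. The Tie2 promoter is active in endothelium and endocardium and in many blood cells, so cardiomyocytes, epicardium and most fibroblasts of these hearts were not the cells in which the gene was targeted. Strain, sex and which part of Ino80 was deleted are not given in the sources used here.

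INO80 is an ATP-dependent remodelling complex that moves nucleosomes and exchanges histone variants, and Ino80 encodes its ATPase. At these stages the mouse heart septates, thickens its compact wall and builds a coronary plexus, while its muscle moves from a fast-dividing, sugar-burning state towards one with more fat oxidation and a more mature calcium store. Blood changes as well, because red cells from the fetal liver replace the first red cells from the yolk sac.

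The 6 KO libraries held between 49879860 and 176472494 counts. Cardiomyocyte transcripts were abundant in all of them: Tnnt2, the cardiac troponin T gene, lay between 2992 and 4173 CPM (counts scaled to a common library size with TMM, a normalization that allows for differing composition). Lung surfactant gene Sftpc had 0 counts in all 6, and Nkx2-1 at most 2. On the first principal component of the 6 KO libraries (31.7% of the variance) the E13.5 group ran from -44.9 to -18.5 and the E14.5 group from 20.2 to 54.5. The second component (26.1%) set E13.5 replicate 5 (-36.8) and E14.5 replicate 2 (-47.1) apart from the other 4 hearts (1.31 to 33.2). Y-linked genes were expressed in E13.5 replicates 3 and 7 and in E14.5 replicate 4, and not in the other 3 KO hearts. Ino80 itself stood at 29.6 CPM in each E13.5 KO heart and at 27.0, 29.5 and 31.9 in the E14.5 hearts, a log2 difference of -0.01 ± 0.08 (standard error, SE; adjusted p = 0.974). The p-values measure the spread between embryos of the same group, pooled over all 12 libraries without a term for litter. At E13.5 that spread lies within litter 1, and at E14.5 it takes in litters 2 and 3. Counts of the whole gene from a whole heart are no check of the deletion.

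Of 20691 genes tested, 779 (3.76%) differed between the stages at an adjusted p under 0.05, written below as "passed". At an unadjusted p under 0.05 there were 4191 (20.3%). At E14.5, 440 were higher (2.13% of the genes tested) and 339 lower (1.64%). Differences were mostly modest: the median absolute log2 difference of the genes that passed was 0.54, and 189 of them passed a fold of 2, of which 136 were higher and 53 lower. The 3 libraries of one stage did not overlap the 3 of the other in 776 of the 779, beside 24.9% of all genes tested. The median log2 difference of all genes was 0.00, and 50.7% lay above 0. How many genes passed depended on single libraries. Without E13.5 KO replicate 7, 3 or 5 the count was 49, 104 or 140, and without E14.5 KO replicate 1 or 2 it was 142 or 500. Leaving out WT E13.5 replicate 4 or 1, which enter through the shared estimate of spread, gave 363 or 502. None of the 779 changed direction in any of these fits. As the stages did not overlap in 776 of them, leaving out a library could hardly turn a sign, so the kept direction is no further support.

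The genes with the highest and the lowest differences that passed mixed muscle, vessel, fat-handling and steroid genes. Plin4, which coats lipid droplets, was at 0.242, 0.197 and 0.236 CPM in E13.5 replicates 3, 5 and 7 and at 3.15, 1.121 and 7.75 in E14.5 replicates 2, 4 and 1, the same order of replicates as in all sentences below. That was a log2 difference of 4.12 ± 0.69 (adjusted p = 0.0144), and E14.5 replicate 4 stood nearest to the E13.5 hearts. Rgs5 (chromosome 1, 169655501 to 169695813 on GRCm38), a pericyte gene that dampens G protein signals, rose from 11.6, 15.1 and 12.9 CPM to 62.2, 44.5 and 101 (2.40 ± 0.28, adjusted p = 0.00277). Abca8a, a lipid transporter gene, rose from 1.29, 1.5 and 0.868 CPM to 6.03, 5.19 and 8.36 (2.44 ± 0.25, adjusted p = 0.00277). The stages were well apart for both. Murc, which encodes the muscle caveolar protein cavin-4, was higher by 1.89 ± 0.33, and Ptgds, a prostaglandin D synthase gene, by 2.04 ± 0.32.

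Among the lowest, Hsd3b6, an enzyme gene of steroid synthesis (chromosome 3, 98805504 to 98814443), fell from 23.3, 19.5 and 20.9 CPM to 5.80, 3.25 and 1.45, a log2 difference of -2.60 ± 0.46 (adjusted p = 0.0173). Its neighbour Hsd3b2 differed by -2.39 ± 0.55. Since the members of this family resemble one another, reads may be shared between them. Tagln3, a gene better known from neurons, fell from 2.62, 2.49 and 1.98 CPM to 0.591, 0.604 and 0.679 (-1.91 ± 0.23, adjusted p = 0.003). Hapln1, which ties hyaluronan to proteoglycans in the cardiac cushions, fell from 57.2, 68.0 and 66.5 CPM to 18.9, 36.6 and 12.98 (-1.48 ± 0.33, adjusted p = 0.0351). The 3 E14.5 hearts were not equally far from E13.5. Over the 440 genes that were higher, replicate 1 was farthest from the E13.5 hearts in 288 (65.5%) and replicate 4 nearest in 276 (62.7%), a count made after the values were seen. Over all 2496 genes whose E14.5 libraries lay above those of E13.5 the shares were 43.3% and 44.9%. Over the 339 genes that were lower, replicate 1 was farthest in 38.9% and replicate 2 in 37.5%, with replicate 4 nearest in 49.0%. Over all 2654 genes lower without overlap, replicate 2 was farthest in 39.8% and replicate 1 in 34.1%.

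**Figure D1:**
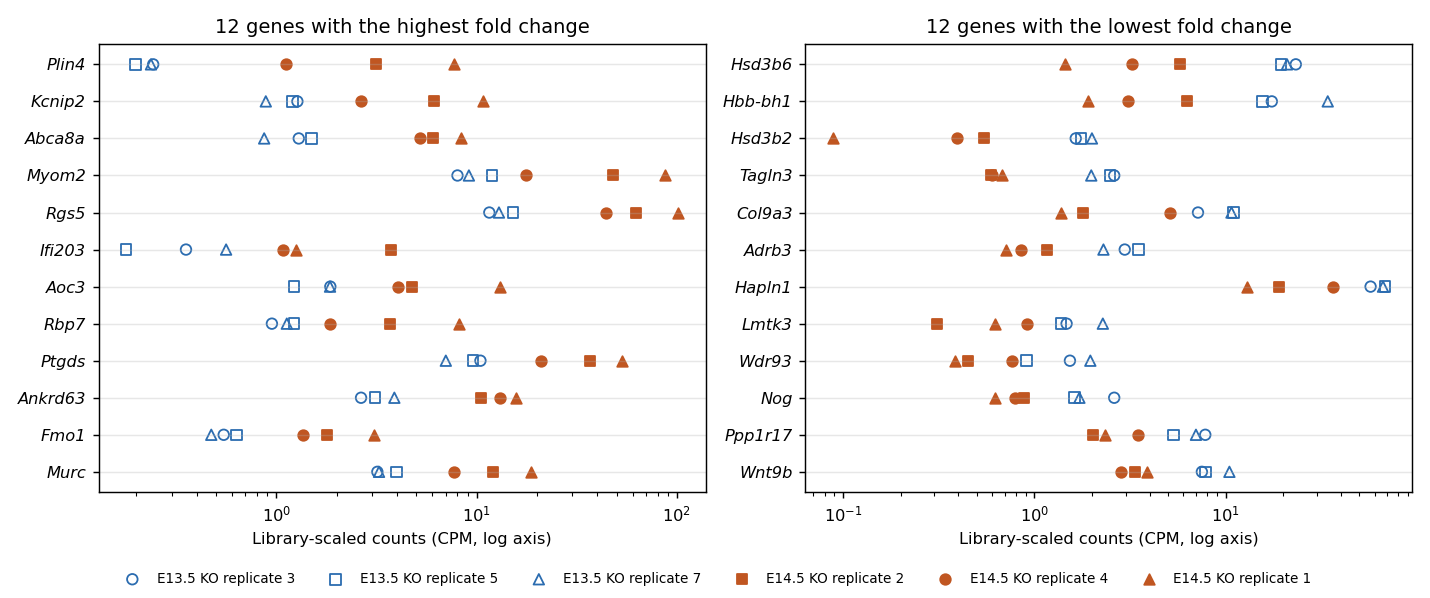
Library-scaled counts (CPM, log axis) of the 12 genes with the highest (left) and the 12 with the lowest (right) log2 difference among those that passed with a mean of at least 1 CPM, 1 point per KO heart. Open symbols are E13.5 and filled symbols E14.5; the filled triangle, E14.5 replicate 1, is the farthest right for every gene on the left but Ifi203.

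The let-7 targets and their partners were the list with the largest share of members that passed. Of its 11 tested members 6 passed (54.5%), all lower at E14.5, against 1.64% of all genes. Background on this pathway is well established. Mature let-7 microRNAs accumulate as embryonic tissues differentiate and pair through their seed with sites in 3′ untranslated regions (3′ UTRs) of messages that belong to earlier stages, while the RNA-binding proteins Lin28a and Lin28b hold back let-7 maturation. The microRNAs were not measured here. Their sequences are shown because the seed in capitals is shared by family members, from RefSeq (GRCm38.p6):
mmu-let-7a-5p: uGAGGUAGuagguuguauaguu
mmu-let-7g-5p: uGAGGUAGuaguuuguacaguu
mmu-miR-98-5p: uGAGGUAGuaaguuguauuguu

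Of the 11 tested members 10 hold a match to the seed in the longest annotated 3′ UTR, all but Dicer1, so that a match does not set apart those that passed. The 6 list members that passed each hold at least 1 match to the seed (CTACCTC, capitals below) in the longest annotated 3′ UTR of GENCODE M21 on GRCm38. Printed 5′ to 3′ on the strand of the gene, the first match of each reads as follows, Hmga2 from chr10:120364213-120364242 (minus strand), Igf2bp1 from chr11:95961767-95961796 (minus), Igf2bp2 from chr16:22059462-22059491 (minus), Igf2bp3 from chr6:49086776-49086805 (minus), Arid3a from chr10:79953899-79953928 (plus) and Arid3b from chr9:57790356-57790379 (minus):
Hmga2: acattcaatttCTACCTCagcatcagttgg
Igf2bp1: tgcgaagtaaaCTACCTCaaggtgtgaagt
Igf2bp2: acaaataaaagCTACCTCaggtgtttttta
Igf2bp3: tttttactcaaCTACCTCaggtattcagta
Arid3a: caagtttctttCTACCTCaggtcttttgat
Arid3b: tcaataaagctCTACCTCttcaca

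All 11 tested members of this list lay below 0, with a median of -0.45, whereas 50.7% of all genes lay above 0. Hmga2, an architectural chromatin protein gene of early embryos, fell from 62.8, 58.5 and 64.6 CPM to 39.3, 41.7 and 25.2 (-0.81 ± 0.19, adjusted p = 0.0408). Arid3a, a DNA-binding factor gene, fell from 18.7, 20.4 and 23.0 CPM to 11.2, 15.1 and 10.9 (-0.73 ± 0.14, adjusted p = 0.0206). Arid3b, its relative, fell from 11.8, 11.1 and 11.9 CPM to 6.15, 7.40 and 5.69 (-0.86 ± 0.19, adjusted p = 0.0318). In none of these did the stages overlap. Over the list 10 of 11 members were lower without overlap, beside 12.8% of all genes tested. The 3 Igf2bp genes encode RNA-binding proteins that steady fetal messages, and all passed: Igf2bp1 by -0.61 ± 0.14, Igf2bp2 by -0.35 ± 0.07 and Igf2bp3 by -0.37 ± 0.09. Lin28b stood at 3.46, 3.57 and 3.605 CPM against 2.44, 3.29 and 2.05 and did not pass (-0.45 ± 0.19, adjusted p = 0.205). Trim71, a classic let-7 target, did not pass either at -2.11 ± 0.57 (adjusted p = 0.0596), with levels of 1.13 to 1.59 CPM against 0.118 to 0.435. WT hearts gave a median of -0.57 over the 11 genes. With 1 library left out in turn the median stayed between -0.64 and -0.34, but between 0 and 7 members passed. The count moved by over 1.5 times without any E13.5 KO library, E14.5 KO replicate 1 or 2, or WT E13.5 replicate 4.

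Seed matches were also counted over all genes, an analysis chosen after the values were seen. Among 7986 tested genes with a 3′ UTR of at least 1000 bases, 554 (6.94%) held CTACCTC on the sense strand within its first 1000 bases. Of the genes that were lower at E14.5, 16 of 159 (10.1%) held it, and of those that were higher, 8 of 262 (3.05%). The list itself, with 6 of 11, was chosen for let-7 and is no evidence on this point. Those 6 are Lin28a, Lin28b, Hmga1, Trim71, Hmga2 and Igf2bp3, of which Hmga2 and Igf2bp3 alone passed. Hmga2 and Igf2bp3 are therefore among the 16 of 159 lower genes, so that share is not independent of the list. The shares were not recounted without the list and were not tested. A match is a stretch of letters and does not show that let-7 acts there.

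Fuel genes come next. Of 29 tested genes of fatty acid uptake and oxidation, 11 passed, all higher at E14.5, against 2.13% of all genes; 28 lay above 0 and the median was 0.27. Acsl1, which activates long-chain fatty acids, rose from 52.5, 50.9 and 43.2 CPM to 120, 88.2 and 129 (1.20 ± 0.19, adjusted p = 0.0115). Cd36, a fatty acid transporter of capillaries and muscle, rose from 144, 120 and 104 CPM to 245, 238 and 290 (1.07 ± 0.18, adjusted p = 0.0136). Ppara, the nuclear receptor that drives this programme, rose from 5.85, 6.85 and 4.45 CPM to 13.01, 8.08 and 14.53 (1.06 ± 0.25, adjusted p = 0.0408). The stages were apart for all 3. Pdk4, which keeps pyruvate out of the mitochondrion, was higher by 0.59 ± 0.10, and the heart fatty acid binding protein gene Fabp3 by 0.57 ± 0.14. Cpt1b, the muscle form of the carnitine gate, overlapped between the stages (5.98 to 6.39 against 5.86 to 7.72 CPM). In WT hearts 13 of the 29 passed, with a median of 0.38. Between 0 and 17 of the 29 passed in KO hearts with 1 library left out, the median staying between 0.24 and 0.32. The count was over 1.5 times lower without any E13.5 KO library, E14.5 KO replicate 1 or 2 or WT E13.5 replicate 4, and higher without WT E14.5 replicate 7.2.

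Of the respiratory chain genes all 31 tested lay above 0 with a median of 0.13, yet only Cox8b passed, the heart and muscle form of a cytochrome oxidase subunit (20.7, 20.9 and 17.3 CPM against 39.7, 28.6 and 49.3; 1.00 ± 0.17, adjusted p = 0.0143). The same 31 genes had a median of 0.31 in WT hearts, where 6 passed. In KO hearts their sum overlapped between the stages, at 13875, 13658 and 12404 CPM against 14746, 13508 and 15606. Singly, 10 of the 31 were higher without overlap, beside 12.1% of all genes tested. The KO share, 3.23%, was near the 3.76% of all genes. It was 0 of 31 without E13.5 KO replicate 7, 2 without WT E14.5 replicate 7.2 and 5 without E14.5 KO replicate 4. Ckm, muscle creatine kinase, rose from 233, 213 and 163 CPM to 559, 354 and 729 (1.43 ± 0.26, adjusted p = 0.0182). Myoglobin, encoded by Mb, was higher by 0.69 ± 0.14 (adjusted p = 0.0256). None of 21 glycolysis genes passed in edgeR, 5 had an unadjusted p under 0.05, and DESeq2 called 2. Their median was -0.01.

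Of 30 sarcomere genes 3 passed (10%, beside 3.76% of all genes): Myom2, an M-band protein of adult muscle, rose from 8.02, 11.9 and 9.14 CPM to 47.9, 17.7 and 87.6 (2.40 ± 0.42, adjusted p = 0.0173), while the atrial and fetal myosin light chains Myl7 (-0.76 ± 0.19) and Myl4 (-0.46 ± 0.09) fell. Paired isoforms of fetal and adult muscle were compared as shares, an analysis chosen after values were seen. Per exon length, Myh7 made up 60.8% ± 4.72 (standard deviation, SD, n = 3) of Myh7 plus Myh6 at E13.5 and 63.7% ± 3.44 at E14.5 (two-sided exact permutation p = 0.5). Tnni1, the fetal troponin I, made up 58.8% ± 0.847 of Tnni1 plus Tnni3 and then 57.1% ± 4.02 (exact permutation p = 0.4). The Myh7 difference was smaller than the SD of either stage. That of Tnni1 was smaller than the SD at E14.5 but larger than that at E13.5. A comparison of 3 against 3 cannot give a p below 0.1. With 1 library left out 0 to 3 sarcomere genes passed, 0 or 1 of them without any E13.5 KO library or E14.5 KO replicate 1 or 2.

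Among genes of the calcium store, Casq2, the calcium-binding protein of the cardiac store, rose from 294, 434 and 305 CPM to 785, 547 and 972 (1.16 ± 0.22, adjusted p = 0.0221). Pln, which restrains the calcium pump, rose from 1222, 1133 and 1206 CPM to 1729, 1847 and 1796 (0.59 ± 0.11, adjusted p = 0.0178). The pump gene Atp2a2 overlapped between the stages (1192 to 1617 CPM against 1366 to 1822; 0.14 ± 0.13). Cacna1g, a T-type calcium channel gene, was higher by 0.67 ± 0.14, and Casq1, the skeletal calsequestrin, lower by 0.56 on the log2 scale. Thus 4 of 20 members passed (20%, beside 3.76% of all genes). Without E14.5 KO replicate 1, or E13.5 KO replicate 3, 5 or 7, fewer passed, and without WT E14.5 replicate 7.2 more did, over a range of 0 to 7.

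Several potassium channel genes of repolarisation were higher at E14.5. Kcnip2, a partner of the transient outward channel, went from 1.27, 1.20 and 0.885 CPM to 6.12, 2.65 and 10.7 (2.55 ± 0.53, adjusted p = 0.0287). Kcnq1, of the slow delayed rectifier, rose from 20.6, 21.6 and 20.4 CPM to 30.2, 29.9 and 41.0 (0.69 ± 0.13, adjusted p = 0.0193), and Kcnj2, an inward rectifier, by 0.67 ± 0.15. Tbx3, a repressor that keeps conduction tissue from becoming working muscle, fell by 0.51 on the log2 scale, and Hcn4 at -0.45 ± 0.16 did not pass (adjusted p = 0.14). Of the 23 genes of this list 5 were higher and 2 lower (30.4% in all, beside 3.76% of all genes). Between 0 and 7 passed with 1 library left out. Any E13.5 KO library, E14.5 KO replicate 1 or 2 and WT E13.5 replicate 4 each lowered that count by over 1.5 times.

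Of 17 genes of atrial and trabecular muscle 4 passed, all lower at E14.5, against 1.64% of all genes, and the median was -0.34. Besides Myl7 (511, 469 and 416 CPM against 272, 250 and 305) and Myl4 these were Bmp2 (-0.56 ± 0.13) and Tbx5 (-0.37 ± 0.09), a T-box factor of atria and left ventricle. Nppa, the atrial natriuretic peptide gene, overlapped between the stages and did not pass (-0.34 ± 0.23). Summed over the list, KO hearts held 3613 to 3857 CPM at E13.5 and 2784 to 2917 at E14.5. Of 24 cardiac transcription factors, 3 were higher and 3 lower (25% in all, beside 3.76% of all genes). Higher were Ppara (above), Mef2a, a factor of muscle differentiation, by 0.43 ± 0.08, and the mitochondrial coactivator Ppargc1a by 0.44 ± 0.10. Lower were Tbx5, Gata5 (-0.97 ± 0.21) and Hand1 (-0.72 ± 0.17), the last 2 both factors of early heart development. Both counts fell by over 1.5 times without several libraries, among them each E13.5 KO library, E14.5 KO replicates 1 and 2 and all WT E13.5 replicates, and reached 0 at the lowest. Without WT E14.5 replicate 7.2, 7 atrial and trabecular genes passed.

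**Figure D2:**
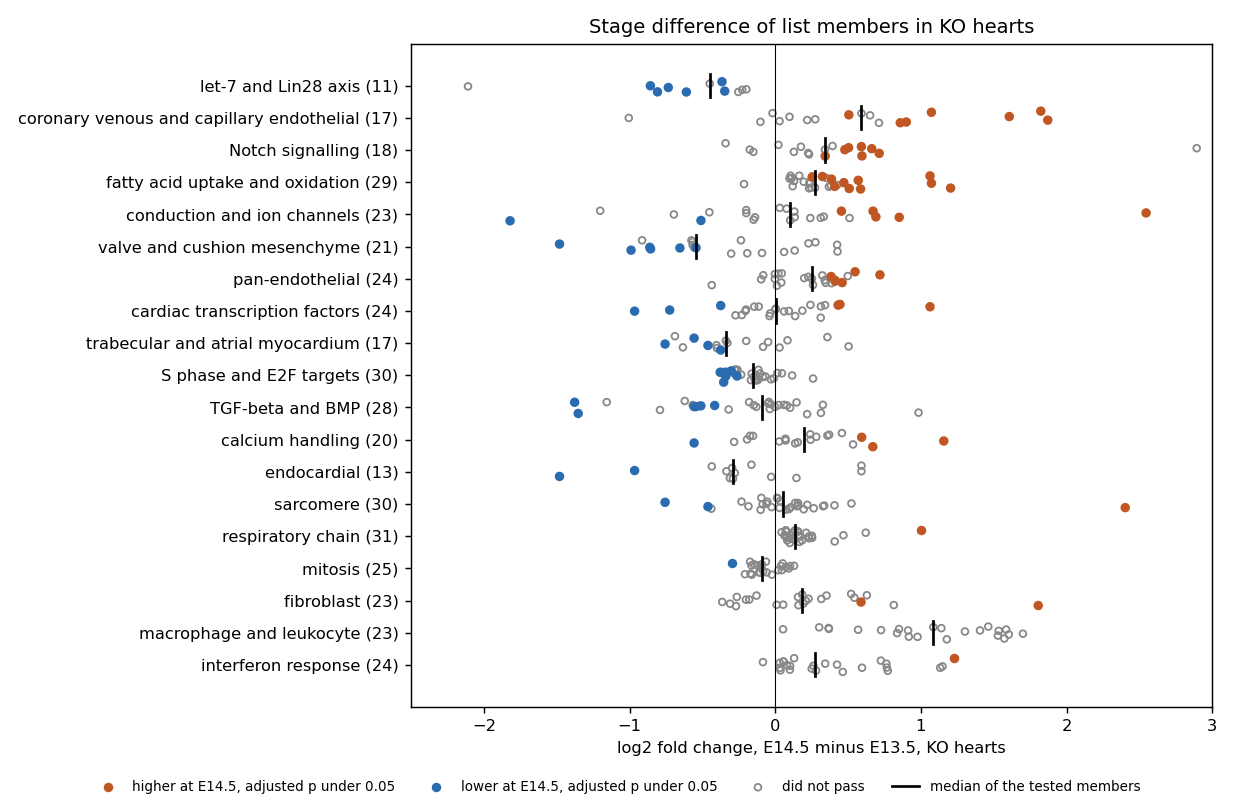
Log2 difference (E14.5 minus E13.5) of each tested member of 19 gene lists in KO hearts, with the number of tested members in brackets. Filled points passed (adjusted p under 0.05), open points did not, and black ticks mark medians; the let-7 list lies wholly left of 0 and the respiratory chain and macrophage lists wholly right of it.

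Of 17 genes of coronary veins and capillaries 7 passed, all higher, against 2.13% of all genes, with a median of 0.59 in KO and 0.46 in WT hearts. Fabp4, a fatty acid binding protein of capillary endothelium (chromosome 3, 10204088 to 10208576), rose from 51.7, 39.6 and 35.5 CPM to 180, 92.8 and 175 (1.82 ± 0.22, adjusted p = 0.00298). Gpihbp1, which anchors lipoprotein lipase to the capillary wall, rose from 1.94, 2.21 and 2.20 CPM to 7.43, 4.95 and 10.9 (1.87 ± 0.26, adjusted p = 0.00554). Neither gene overlapped between the stages. Angpt2, a Tie2 ligand of remodelling vessels, was higher by 1.61 ± 0.38 and Apln, a tip cell peptide gene, by 0.90 ± 0.21. Each of these 2 passed in only 3 of the 12 fits with 1 library left out. Angpt2 counts in the VEGF and angiopoietin list, where 2 of 13 passed, both higher (15.4%, against 2.13%), and 0 to 4 with 1 library left out. Between 2 and 7 of the vein and capillary genes passed with 1 library left out. Each E13.5 KO library, E14.5 KO replicate 1 and WT E13.5 replicate 4 lowered that count by over 1.5 times, the median staying between 0.43 and 0.74.

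Of 24 pan-endothelial genes, 6 passed and all were higher at E14.5, against 2.13% of all genes. Pecam1, a junction protein gene, rose from 90.6, 93.9 and 94.5 CPM to 113, 120 and 138 (0.41 ± 0.07, adjusted p = 0.0182). Sox7, an endothelial transcription factor gene, rose from 33.6, 35.95 and 37.3 CPM to 48.6, 46.3 and 52.1 (0.46 ± 0.07, adjusted p = 0.0115). Cdh5, another junction gene, did not pass, although its 224 to 243 CPM at E13.5 lay below the 259 to 301 at E14.5 (0.25 ± 0.08, adjusted p = 0.104). Tek, which encodes Tie2, overlapped between the stages (-0.00). Summed over the list, levels were 1907 to 1944 CPM at E13.5 and 2031 to 2285 at E14.5 in KO hearts, beside 1957 to 2064 and 1772 to 2038 in WT hearts. In these bulk samples more endothelial cells and more RNA per endothelial cell cannot be told apart, and the part of this level in the single genes was not tested. The median was 0.26 in KO and 0.00 in WT hearts. Between 1 and 8 members passed with 1 library left out, over 1.5 times fewer without any E13.5 KO library or E14.5 KO replicate 1.

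Notch signalling works between neighbouring cells, where Dll4 on one endothelial cell activates Notch receptors on the next and Hey and Hes genes respond; in the heart it sets arterial identity and shapes trabeculae. Of its 18 tested genes 7 passed, all higher at E14.5, against 2.13% of all genes. The ligand gene Dll4 rose from 16.9, 18.6 and 17.3 CPM to 25.3, 19.9 and 28.3 (0.48 ± 0.11, adjusted p = 0.0418). The receptor gene Notch4 rose from 26.6, 26.02 and 26.3 CPM to 34.7, 31.2 and 46.0 (0.50 ± 0.11, adjusted p = 0.0363). Among the targets, Hey1 rose from 10.8, 10.98 and 11.4 CPM to 17.9, 15.7 and 16.6 (0.60 ± 0.09, adjusted p = 0.0115), Heyl by 0.66 ± 0.13 and the feedback gene Nrarp by 0.71 ± 0.16. Jag1 (-0.34) and Notch1 (0.23) did not pass. In the coronary arterial list, Dll4, Hey1 and Hey2 were the 3 of 17 that passed (17.6%), all higher, against 2.13% of all genes. Its median was 0.13, and 7 members lay below 0. Without overlap 6 were higher and 3 lower at E14.5, beside 12.1% and 12.8% of all genes tested. Between 0 and 4 coronary arterial genes passed with 1 library left out. With 1 library left out, 0 to 7 Notch genes passed and the median stayed between 0.24 and 0.42. Every library but E14.5 KO replicate 4 and WT E14.5 replicates 7 and 7.2 lowered that count by over 1.5 times.

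Of 21 tested cushion and valve genes, 6 passed, all lower at E14.5, against 1.64% of all genes; the median was -0.54, and -0.27 in WT hearts. Has2, the hyaluronan synthase of cardiac jelly, fell from 5.93, 8.39 and 7.84 CPM to 4.04, 4.63 and 3.50 (-0.86 ± 0.16, adjusted p = 0.0206), beside its partner Hapln1 above. Tgfb2, a signal for cushion transformation, fell from 94.6, 99.5 and 83.8 CPM to 64.7, 71.1 and 54.6 (-0.54 ± 0.10, adjusted p = 0.0182). The stages did not overlap in either gene. Postn, a matrix gene of maturing valves, lay at 461, 564 and 468 against 623, 583 and 543 CPM and did not pass (0.23 ± 0.09, adjusted p = 0.161). Between 0 and 10 members passed with 1 library left out: fewer without any E13.5 KO library or E14.5 KO replicate 1 or 2, more without E14.5 KO replicate 4.

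Of 28 genes of TGF-beta and BMP signalling 6 passed, all lower, against 1.64% of all genes, though the median was -0.09. They took in ligands and their antagonists alike. Bmp7, a ligand gene, fell from 184, 187 and 185 CPM to 132, 134 and 124 (-0.51 ± 0.08, adjusted p = 0.0101), while the antagonist genes Nog (-1.38 ± 0.30) and Fst (-1.35 ± 0.25) and the inhibitory Smad6 (-0.42 ± 0.07) also fell. Of 24 Wnt genes 2 passed, both lower (8.33%, against 1.64% of all genes). Wnt9b, made by endocardium, fell from 7.51, 7.86 and 10.5 CPM to 3.36, 2.82 and 3.89 (-1.36 ± 0.24, adjusted p = 0.0173), and Wnt11 by 0.66 on the log2 scale. Between 1 and 8 TGF-beta and BMP genes passed with 1 library left out, and 0 to 7 Wnt genes. Each E13.5 KO library and E14.5 KO replicate 1 lowered the first count by over 1.5 times. The second was moved as much by every library but WT E14.5 replicates 8 and 7.

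Of 30 genes of S phase, 7 passed, all lower at E14.5, against 1.64% of all genes, 26 lay below 0, and the median was -0.15. Mcm2, a subunit of the helicase that opens replication origins, fell from 139, 132 and 134 CPM to 106, 104 and 110 (-0.34 ± 0.06, adjusted p = 0.0206), and Mcm3 and Mcm4 by 0.35 and 0.30 on the log2 scale. Of 25 mitotic genes 1 passed, Plk1 (-0.29 ± 0.07), a share of 4% beside 3.76% of all genes, and the proliferation marker Mki67 overlapped between the stages (300, 257 and 270 CPM against 262, 242 and 270). Of 12 inhibitors of the cell cycle 3 were higher and 1 lower (33.3% in all, beside the same 3.76%). Rbl2, a retinoblastoma relative of resting cells, rose from 31.8, 31.0 and 37.0 CPM to 46.7, 46.4 and 46.5 (0.48 ± 0.08, adjusted p = 0.0115), with Cdkn1b by 0.36 ± 0.08 and Cdkn2c by 0.51 ± 0.12. Cdkn1c, an imprinted inhibitor gene, fell (-0.65 ± 0.15). Without any E13.5 KO library, E14.5 KO replicate 1 or WT E13.5 replicate 4 both counts dropped by over 1.5 times (lowest 0 for S phase and 1 for the inhibitors), and without E14.5 KO replicate 2 that of the inhibitors did.

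Of 18 pericyte and smooth muscle genes 2 were higher and 1 lower (16.7% in all, beside 3.76% of all genes). Cnn1, a smooth muscle contractile gene that fetal cardiomyocytes also express, fell from 286, 282 and 271 CPM to 197, 174 and 173 (-0.62 ± 0.08, adjusted p = 0.00354), while the pericyte channel gene Kcnj8 rose by 1.11 ± 0.20 beside Rgs5. Of 23 fibroblast genes Dpt (1.81 ± 0.26) and Dcn (0.59 ± 0.10), both of the collagen-organising matrix, passed. The main fibrillar collagen genes Col1a1 (643, 867 and 684 CPM against 441, 491 and 894) and Col3a1 overlapped between the stages. Of 32 collagen genes 2 were higher (Col15a1 by 1.01 ± 0.20 and Col5a3 by 2.27 ± 0.52) and 3 lower (Col9a3 at -1.78, Col9a2 at -0.83 and Col11a1 at -0.90). The shares that passed were 8.7% of the fibroblast and 15.6% of the collagen genes, beside the same 3.76%. Aspn, a small proteoglycan gene, rose by 1.45 ± 0.22. With 1 library left out 0 to 11 collagen genes and 0 to 4 fibroblast genes passed. Without E13.5 KO replicate 3 or 7 or E14.5 KO replicate 1 both counts fell by over 1.5 times, and without E14.5 KO replicate 4 both rose by as much. The collagen count also fell by over 1.5 times without KO replicate 5 of E13.5, KO replicate 2 of E14.5, WT E14.5 replicate 7 or any WT E13.5 library.

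Of 18 circadian and hormone-responsive genes 4 passed, all higher at E14.5, against 2.13% of all genes. Per1, a clock gene that glucocorticoids also induce, rose from 24.6, 23.2 and 24.8 CPM to 41.3, 40.9 and 43.5 (0.79 ± 0.09, adjusted p = 0.00277), and Hlf and Klf9 by 0.71 ± 0.13 and 0.53 ± 0.12. The clock genes Nr1d1 (-0.04) and Dbp (0.14) did not pass, and the labels state no hour of collection. The metallothionein genes Mt1 and Mt2, which bind zinc and copper, rose by 1.15 ± 0.19 and 1.27 ± 0.23. Gpx3, a secreted glutathione peroxidase gene, fell from 703, 602 and 692 CPM to 401, 413 and 494 (-0.61 ± 0.15, adjusted p = 0.0436). Of 21 genes of the hypoxia response 4 passed, again all higher against 2.13%: Ndrg1 by 1.20 ± 0.24, Egln3 by 1.01 ± 0.25, Epas1 by 0.43 ± 0.10 and Mxi1 by 0.31 ± 0.06, while Vegfa (0.25) and Slc2a1 (-0.37) did not. With 1 library left out 1 to 5 of the hormone-responsive and 0 to 6 of the hypoxia genes passed, over 1.5 times fewer of both without any E13.5 KO library, E14.5 KO replicate 1 or WT E13.5 replicate 4, and of the hypoxia genes without E14.5 KO replicate 2.

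Among globin genes, Hbb-bh1, a beta-like globin gene of yolk sac red cells, fell from 17.4, 15.6 and 34.2 CPM to 6.31, 3.08 and 1.90 (-2.58 ± 0.48, adjusted p = 0.0193). Hbb-y fell short of the threshold at -2.09 ± 0.64 (adjusted p = 0.0866), and the adult gene Hbb-bs at 2.76 ± 0.75 (adjusted p = 0.0613), whose level ran from 848 to 12342 CPM among the E14.5 hearts. Reads of the adult genes may be shared with near-identical copies. The embryonic share of beta-like globin, summed per exon length, was 61.9%, 79.3% and 55.7% at E13.5 (mean 65.6 ± 12.2 SD, n = 3) and 39.5%, 9.87% and 0.814% at E14.5 (16.7 ± 20.2). The stages did not overlap, and p = 0.1 (two-sided exact permutation test) was the smallest that 3 against 3 allow. In WT hearts the shares were 26.7% ± 5.74 and 2.68% ± 2.87. Among the E14.5 KO hearts replicate 2 stood nearest to E13.5 and replicate 1 farthest. Globin genes took 3.98% of all counts in E14.5 KO replicate 1 and 0.491% to 1.77% in the other 11 libraries. These shares were chosen after values were seen.

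**Figure D3:**
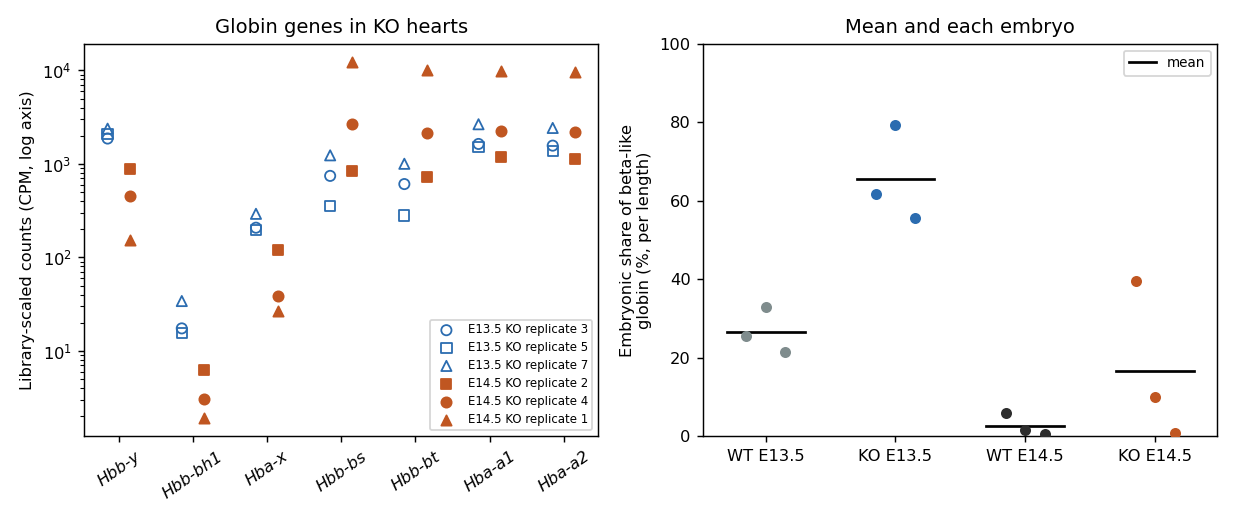
Left, library-scaled counts (CPM, log axis) of 7 globin genes, 1 point per KO heart, open at E13.5 and filled at E14.5. Right, embryonic share of beta-like globin (Hbb-y and Hbb-bh1 of all 4 beta-like genes, per exon length) in each of the 12 hearts with the group mean as a line; the 3 E14.5 KO hearts stand at 39.5%, 9.87% and 0.814%.

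The summed level of macrophage and leukocyte genes overlapped between the stages. It was 58.7, 21.8 and 103 CPM in the E13.5 KO hearts and 37.6, 171 and 145 in the E14.5 KO hearts, beside 151 to 161 and 121 to 139 in WT hearts. All 23 members lay above 0 with a median of 1.09, yet none passed in edgeR, and 4 had an unadjusted p under 0.05. The stages did not overlap in 1 of the 23, beside 24.9% of all genes tested. Csf1r, the receptor that macrophages need, was at 6.51, 4.03 and 11.4 against 4.63, 23.3 and 19.3 CPM (1.09 ± 0.45, adjusted p = 0.197). Timd4, of resident macrophages, was at 0 in E13.5 replicate 5. Of the 6 KO hearts, E13.5 replicate 5 had the lowest sum and E14.5 replicate 2 the next. DESeq2 called 1 of the 23. Of 24 interferon genes 23 lay above 0 with a median of 0.27, yet only Rsad2 passed (1.23 ± 0.20, adjusted p = 0.0136). That share, 4.17%, was near the 3.76% of all genes. Summed interferon levels overlapped between the stages, at 183, 150 and 241 CPM against 296, 246 and 139. The stages did not overlap in 1 of the 24 genes, beside 24.9% of all genes tested. With 1 library left out the median of the 24 ran from 0.02 to 0.77. Without E13.5 KO replicate 3 or 5 no interferon gene passed.

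**Figure D4:**
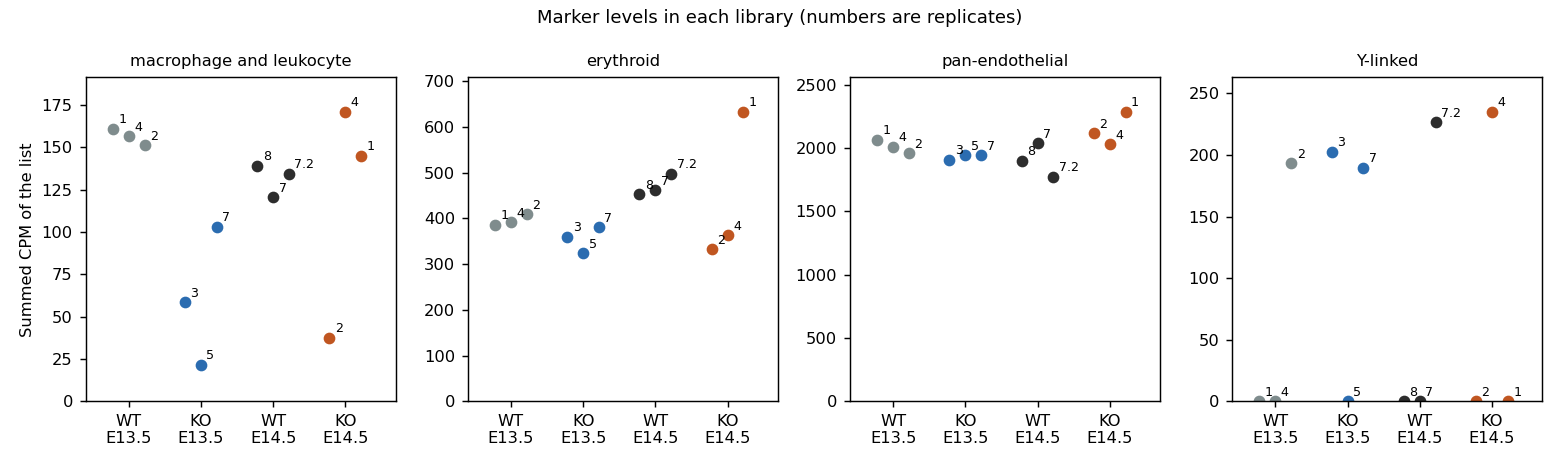
Summed library-scaled counts (CPM) of macrophage and leukocyte, erythroid, pan-endothelial and Y-linked genes in each of the 12 libraries, with replicate numbers. Among macrophage genes, 21.8 in E13.5 KO replicate 5 and 37.6 in E14.5 KO replicate 2 are the lowest sums, and E14.5 KO replicate 1 is highest for erythroid genes.

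WT hearts over the same day gave 766 genes that passed (3.7%), of which 386 were higher (1.87%) and 380 lower (1.84%), with 50.5% of all genes above 0, and these values share no library with the KO comparison beyond the common estimate of spread. In both genotypes 281 genes passed, 36.1% of those in KO and 36.7% of those in WT, all in the same direction. Of the 779 in KO, 763 had a WT difference of the same sign. Selection favours the comparison that chose them: the 440 higher genes had a median of 0.65 in KO and 0.43 in WT, and the 339 lower genes -0.42 and -0.30. WT embryos came from the same 3 litters, litter 1 at E13.5 and litters 2 and 3 at E14.5, so that stage and litter cannot be told apart in them either.

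A stage difference that depends on genotype needs its own test. None of 20691 genes passed it in edgeR (smallest adjusted p = 0.996), 750 (3.62%) had an unadjusted p under 0.05, and DESeq2 called 2. Those were Sepp1, which encodes the selenium carrier selenoprotein P, and Emp1, a membrane protein gene. Sepp1 rose from 104, 106 and 103 CPM to 167, 194 and 214 in KO hearts (0.88 ± 0.10) beside 0.21 ± 0.10 in WT, a difference of 0.66 (95% interval 0.37 to 0.95). Emp1 rose from 143, 144 and 140 CPM to 212, 196 and 208 (0.53 ± 0.06) beside 0.12 ± 0.06, a difference of 0.41 (0.23 to 0.59). An unadjusted p under 0.05 in this test was found for 8 of 24 pan-endothelial, 5 of 17 trabecular and atrial, 4 of 17 coronary venous and capillary and 4 of 18 Notch genes. By number and not by share, these are the 4 of 53 lists with the most such genes, beside 3.62% of all genes. The smaller mast cell and liver lists each held such a p in 2 of 8 genes. None was found among 29 fatty acid, 30 S phase, 20 calcium or 21 cushion and valve genes. The genes named next had passed in KO hearts, and that selection favours a larger difference there. Notch4 differed by 0.50 in KO and -0.03 in WT hearts (interval of the difference 0.18 to 0.88), Sox7 by 0.46 and 0.05 (0.18 to 0.63) and Fabp4 by 1.82 and 0.98 (0.20 to 1.49), none of which held after adjustment in edgeR. By contrast, intervals for Acsl1 (-0.67 to 0.48) and Rgs5 (-0.92 to 0.72) took in 0. For the 779 genes the interval reached a median of 0.35 to either side.

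**Figure D5:**
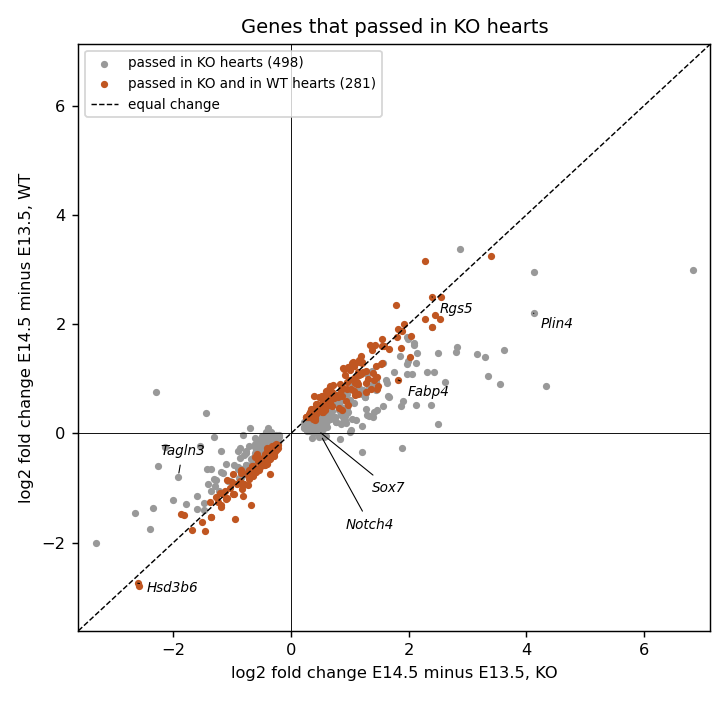
Log2 difference (E14.5 minus E13.5) in WT hearts against that in KO hearts for the 779 genes that passed in KO hearts. The 281 orange points passed in both, the dashed line marks equal change, and Sox7 and Notch4 lie near 0 on the WT axis.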

How the data were processed

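The authors deposited a matrix of unnormalized read counts, by gene symbol (45664 entries), for 12 whole-heart libraries of 46556032 to 182545647 counts, each from its own embryo. The submitters' processing notes list STAR 2.5.3a, featureCounts, DESeq2, DESeq and GRCm38; strand and counting settings are not stated there, so overlapping and antisense genes may share reads. No KO library was a copy of another of its group. In edgeR 4.0.16 (R 4.3.3), after filterByExpr (20691 genes kept) and TMM, all 12 libraries entered a single quasi-likelihood fit with 4 group means, 8 residual degrees of freedom and a biological coefficient of variation of 17.1%. F-tests were two-sided, and Benjamini-Hochberg adjustment covered all genes (threshold 0.05). The SE divides the absolute log2 difference by the square root of F.

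Positions came from GENCODE M21 (19463 genes, 94.1%). The 53 lists (930 genes, 895 tested) were described by counts and medians without a set test. Named genes were Ino80, the 12 highest and 12 lowest that passed (mean of 1 CPM or more, stages apart), up to 3 members per list and 1 in the other direction, a panel of 25, and Emp1 and Sepp1, chosen after their values were seen; further list members are named only to describe a list. Members and lists were chosen with earlier results of these data known. Alternatives were DESeq2 1.42.0, RLE scaling, no low-count filter, KO libraries alone, litter as a block, Y-linked or erythroid covariates, and omitted libraries. The fits were also run on counts simulated from the fitted spread, with no effect of litter or sex. Such counts cannot show how litter or single libraries bear on the results. Results for some genes are not reported here.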

Additional observations from a re-analysis of the deposited data

How the results depend on the processing

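Beside 779 genes (440 higher, 339 lower), 197 (129 and 68) passed with the 6 KO libraries alone, 379 (229 and 150) with Y-linked expression as a covariate, 121 (88 and 33) when the pair of KO libraries apart on the second component (replicate 5 of E13.5, replicate 2 of E14.5) was left out, and 1822 (978 and 844) with DESeq2. With 1 library left out, 49 to 1044 passed, 37 to 581 higher and 12 to 463 lower (without E14.5 KO replicate 4: 910, 520 and 390); the share that was higher reached 78.8%, against 56.5%. RLE scaling (774), no filter (858), the erythroid covariate (725) and leaving out litter 3 (624) stayed within 1.5 times. Every gene of the 779 that was tested kept its sign under all 21 alternatives. With 776 of them not overlapping between the stages, leaving out libraries could hardly have turned a sign. The KO groups share no replicate number and litter 1 holds all E13.5 embryos, so no pairing spans the stages; litter as a replicate block within E14.5 gave 1076 genes (596 higher, 480 lower), 778 of the 779 among them. The genotype test gave 0 genes under each alternative in which it was run except DESeq2 (2); it was not run on KO libraries alone.

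Of 105 named genes that passed, 10 passed in each of the 12 fits without 1 library (Abca8a, Ankrd63, Cnn1, Fabp4, Gpihbp1, Per1, Rbl2, Rgs5, Sox7 and Tagln3), and all of these but Rbl2 and Sox7 under every alternative. Signs turned in 6 genes that had not passed. Col3a1 reached -0.0105 without litter 3 and -0.0027 without E14.5 KO replicate 1 (highest 0.33), and Myh7 -0.10 and -0.0933 (highest 0.29). Without the pair above Col1a1 reached 0.0612 (-0.65 without E14.5 KO replicate 1; lowest -0.66), Cxcl12 0.04 and Ino80 0.05. Without E14.5 KO replicate 2 Cxcl12 reached 0.10 (lowest -0.28), Ino80 0.0520 (-0.0669 without E14.5 KO replicate 1) and Myh6 0.01. Myh6 was 0.17 without E13.5 KO replicate 3 (lowest -0.25). The cause was not tested.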
